A study of Mus musculus with 2 samples.

Results

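The 8 proliferation genes Mki67, Top2a, Cenpf, Cenpe, Kif11, Aspm, Anln and Ect2 were followed in single-nucleus RNA-seq of mouse brown adipose tissue. They were taken by symbol from a fixed list, and all 8 were among the 22620 genes counted. Nuclei were counted when they held at least 1 UMI (a unique molecular identifier, which marks 1 captured RNA molecule) of 2 or more of the 8 genes. Among nuclei that passed the filters, 27 of 11556 did in the library labelled KO and 31 of 13973 in the library labelled Flox.

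By its label the library called KO is from brown adipose tissue of Nfe2l1(f)-KO mice and the library called Flox from brown adipose tissue of Flox mice, both at 4 weeks of age. Nfe2l1 encodes NRF1, a transcription factor that raises proteasome gene expression, and a floxed allele carries recombination sites that Cre can use. Which promoter drives Cre, how many animals were pooled and their sex are details that the labels leave out. Each genotype had 1 library, so there is no replicate error, no test was made between genotypes, and genotype and library cannot be told apart. Intervals are exact 95% intervals, save those of differences in percentage points, and cover counting error only. Those of summed UMIs treat each UMI as independent, so they are too narrow where a few nuclei hold many of the UMIs.

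Proliferation genes encode the machinery of chromosome segregation and cell division. Their transcripts are made mainly in G2 and M phase, under the MuvB complex with B-Myb and FOXM1, and are kept low in resting cells by the DREAM complex. In growing brown fat, division is known from preadipocytes, endothelial cells and resident immune cells, whereas lipid-laden adipocytes are regarded as largely postmitotic.

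The gene products act at successive steps. Ki-67 (Mki67) coats mitotic chromosomes and topoisomerase II alpha (Top2a) untangles sister DNA. CENP-F (Cenpf) and the kinesin CENP-E (Cenpe) sit on the outer kinetochore. The kinesin Eg5 (Kif11) and the pole protein ASPM (Aspm) build the spindle. Anillin (Anln) and the RhoA activator ECT2 (Ect2) organise the contractile ring of cytokinesis. In mm10 coordinates from GENCODE vM21, Mki67 spans chr7:135689784-135716361 and Top2a chr11:98992943-99024189. Cenpf spans chr1:189640606-189688086 and Cenpe chr3:135212537-135273611. Kif11 spans chr19:37376403-37421859 and Aspm chr1:139454772-139494091. Anln spans chr9:22332012-22389188 and Ect2 chr3:27097222-27153878. Top2a, Kif11 and Anln each overlap another annotated gene on the same strand in that annotation (Gm23451, AC137605.4 and Gm48646), and reads shared with those genes cannot be told apart here.

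The promoter windows show sequence that most of the genes have in common. The RefSeq windows (GRCm38.p6) run from 250 bases before to 50 bases after each annotated start, and all 8 genes matched. They were searched on both strands for TTTGAA, the core of the cell cycle genes homology region (CHR) that MuvB complexes bind, and for CCAAT, the NF-Y box. The 2 motifs can share at most 1 base with each other. TTTGAA was found for 7 of the 8 genes (87.5%), against 20.2% of 27025 genes with a window. CCAAT was found for 7 of the 8 genes (87.5%), against 41.1% of all genes. Both were present for 6 of the 8 genes (75.0%), against 7.97% of all genes. Cenpe had no TTTGAA and Anln no CCAAT in its window. A match of letters is a description and not a binding site.

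The 250 bases before the start are printed for the 3 genes whose nuclei most often held a second proliferation gene (Mki67, Cenpf and Top2a) and for the gene whose nuclei least often did (Anln). They are given 5′ to 3′ on the strand of the gene, all on the minus strand, with the letters of both motifs on either strand in capitals. The Mki67 sequence is chr7:135716380-135716629, Top2a is chr11:99024190-99024439, Cenpf is chr1:189688087-189688336 and Anln is chr9:22389207-22389456.
Mki67: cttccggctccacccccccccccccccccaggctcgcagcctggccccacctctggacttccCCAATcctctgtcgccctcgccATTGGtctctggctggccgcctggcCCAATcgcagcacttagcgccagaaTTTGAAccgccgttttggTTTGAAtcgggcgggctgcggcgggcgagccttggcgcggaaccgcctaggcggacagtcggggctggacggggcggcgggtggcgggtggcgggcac
Top2a: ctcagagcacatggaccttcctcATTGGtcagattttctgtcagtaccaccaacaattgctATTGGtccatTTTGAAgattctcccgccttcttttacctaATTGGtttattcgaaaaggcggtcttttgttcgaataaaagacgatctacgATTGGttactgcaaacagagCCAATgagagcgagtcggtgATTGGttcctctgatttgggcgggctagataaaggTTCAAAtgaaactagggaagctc
Cenpf: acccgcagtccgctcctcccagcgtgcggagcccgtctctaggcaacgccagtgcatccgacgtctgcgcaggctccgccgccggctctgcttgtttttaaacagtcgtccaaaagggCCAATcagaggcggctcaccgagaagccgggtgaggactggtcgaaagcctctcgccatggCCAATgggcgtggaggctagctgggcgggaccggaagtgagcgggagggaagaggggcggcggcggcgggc
Anln: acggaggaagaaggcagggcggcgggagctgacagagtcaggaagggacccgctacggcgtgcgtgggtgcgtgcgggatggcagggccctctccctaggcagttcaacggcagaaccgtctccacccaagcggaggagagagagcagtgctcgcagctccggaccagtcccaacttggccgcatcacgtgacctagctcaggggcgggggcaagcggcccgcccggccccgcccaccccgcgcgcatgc
Mki67 had 2 TTTGAA motifs, which began 116 and 98 bases before the start, and CCAAT motifs 188, 166 and 141 bases before it. Top2a had TTTGAA motifs 179 and 23 bases before the start and 6 CCAAT motifs. Cenpf had CCAAT motifs 132 and 71 bases before the start, and its TTTGAA lay within the 50 bases after it. Both TTTGAA motifs of Anln also lay after the start, so no letters of its printed sequence are in capitals.

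The library labelled KO held 43080725 UMIs in 13030 barcodes and the library labelled Flox 46528077 UMIs in 16145 barcodes, against a stated loading target of 8000 nuclei each. Before filtering, 65 barcodes occurred in both libraries. After filtering and removal of likely doublets the median was 2641.5 UMIs per nucleus in the library labelled KO and 2252 in the library labelled Flox. Mitochondrial UMIs had a median of 1.12% in the library labelled KO and 0.420% in the library labelled Flox. Nfe2l1 itself went against the label: it stood at 269.6 CPM (UMIs of the gene per 1000000 UMIs) in the library labelled KO and 118.2 CPM in the library labelled Flox, a ratio of 2.28 (2.20 to 2.36). The 3′ counts do not show which exons were left, so retained 3′ reads and exchanged labels cannot be told apart here. An exchange would turn every direction given between the libraries, and the labels are used as names of libraries only. Nuclei were grouped by clustering that left the proliferation genes and the other cell cycle genes out, and clusters were named from marker genes. In adipocyte-like nuclei the 18 adipocyte markers made up 262 of 10000 UMIs in the library labelled KO and 255 in the library labelled Flox.

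Nuclei with 2 or more proliferation genes were rare, and their shares in the 2 libraries did not separate beyond counting error. Their share was 0.234% (0.154 to 0.340) in the library labelled KO and 0.222% (0.151 to 0.315) in the library labelled Flox, a ratio of 1.05 (0.605 to 1.82). A further 404 nuclei labelled KO and 411 labelled Flox held a single gene of the 8. Nuclei with 3 or more genes numbered 12 in the library labelled KO and 17 in the library labelled Flox. Nuclei with 5 or more genes numbered 3 in the library labelled KO and 9 in the library labelled Flox. When every nucleus was thinned to 1000 UMIs, the share with 2 or more genes was 0.106% of 10330 nuclei labelled KO and 0.105% of 12403 labelled Flox (ratio 1.02, 0.412 to 2.46), and 1226 and 1570 shallower nuclei were left out.

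Many of these nuclei lay in a small cluster of mixed immune nuclei. That cluster held 408 of 25529 nuclei (1.6%) but 30 of the 58 nuclei with 2 or more proliferation genes (51.7%), 48.1% of those labelled KO and 54.8% of those labelled Flox. The share there was 13 of 187 nuclei (6.95%, 3.75 to 11.6) in the library labelled KO and 17 of 221 (7.69%, 4.54 to 12.03) in the library labelled Flox, a ratio of 0.904 (0.404 to 1.98). After thinning to 1000 UMIs the shares were 5.07% of 138 nuclei labelled KO and 4.79% of 167 labelled Flox. How many fell in the cluster depended on the clustering. With doublets kept it held 14 nuclei labelled KO and 11 labelled Flox, and the adipocyte-like class 17 labelled KO and 9 labelled Flox. With each library clustered alone it held 8 labelled KO and 8 labelled Flox, and the adipocyte-like class 15 labelled KO and 4 labelled Flox. It held 11 labelled KO and 8 labelled Flox at the lower clustering resolution of 0.3, and 9 in each library when nuclei were classed by marker scores. The cluster joined T, NK, B, dendritic and monocyte-type nuclei and is therefore described by its content rather than as a cell type.

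Adipocyte-like nuclei, the largest class, held 11 of 8228 (0.134%, 0.0668 to 0.239) in the library labelled KO and 4 of 8887 (0.0450%, 0.0123 to 0.115) in the library labelled Flox. The ratio of 2.97 had an interval from 0.880 to 12.8. Fibroblast/progenitor-like nuclei held 2 of 1420 (0.141%) in the library labelled KO and 5 of 2057 (0.243%) in the library labelled Flox. Macrophage/monocyte-like nuclei held 1 of 368 (0.272%) in the library labelled KO and 2 of 501 (0.399%) in the library labelled Flox. In endothelial-like nuclei there were 0 of 981 in the library labelled KO, which allows a share of up to 0.306%, and 2 of 1540 (0.130%) in the library labelled Flox. In pericyte/smooth muscle-like nuclei there were 0 of 219 in the library labelled KO, which allows up to 1.37%, and 1 of 346 (0.289%) in the library labelled Flox. In none of these classes did the intervals of the 2 libraries separate in these values. For adipocyte-like nuclei the difference, KO minus Flox, was 0.0887 percentage points (-0.008 to 0.199), and under 3 alternatives its interval lay above 0. It was 0.136 (0.0305 to 0.258) with each library clustered alone, 0.101 (0.00138 to 0.214) at resolution 0.3 and 0.219 (0.0193 to 0.427) for nuclei with 2 or more UMIs of the 8 genes.

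Skeletal muscle nuclei are postmitotic and should lack these genes, so the skeletal muscle-like class gives a level of stray RNA. Of them 0 of 73 held any of the 8 genes in the library labelled KO (at most 4.11%) and 2 of 298 (0.671%, 0.0814 to 2.40) in the library labelled Flox, at median depths of 2206 and 1869 UMIs. Adipocyte-like nuclei held at least 1 of the genes in 4.02% (3.61 to 4.47) in the library labelled KO and 3.50% (3.13 to 3.90) in the library labelled Flox, at median depths of 3096 and 2761 UMIs. The adipocyte-like share labelled KO lay under the limit that 0 of 73 skeletal muscle-like nuclei allow. With so few of them, whether that share was above background cannot be told. The intervals labelled Flox did not overlap at these unequal depths. After thinning to 1000 UMIs the adipocyte-like shares were 1.45% in the library labelled KO and 1.40% (1.16 to 1.67) in the library labelled Flox. Thinned skeletal muscle-like nuclei held the genes in 0 of 59 labelled KO and in 1 of 240 (0.417%, 0.0105 to 2.30) labelled Flox, so that at equal depth the intervals labelled Flox overlapped as well. Of nuclei with 2 or more genes there were 0 of 73 labelled KO and 0 of 298 labelled Flox in skeletal muscle-like nuclei, which allows up to 4.11% and 1.01%. Schwann-like nuclei held 0 of 49 labelled KO (up to 6.12%) and 0 of 84 labelled Flox (up to 3.57%).

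**Figure D1:**
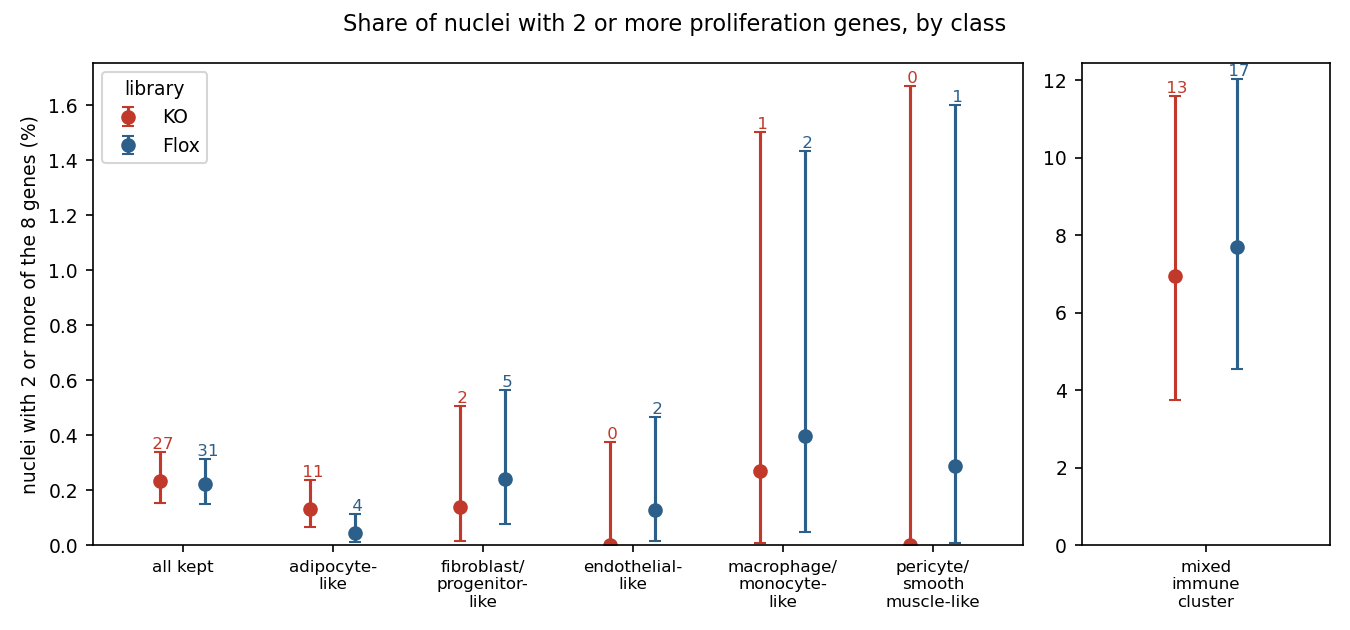
Percent of nuclei with 2 or more of the 8 proliferation genes (y axis) in each class, for the library labelled KO (red) and the library labelled Flox (blue); bars are exact 95% binomial intervals and the digits over them are numbers of nuclei. The mixed immune cluster, drawn on its own axis, stands at 6.95% in the library labelled KO and 7.69% in the library labelled Flox, while every other class shown lies at or below 0.399%.

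The mixed immune cluster was clustered again to see which of its nuclei carried the genes, a step added after its values were known. A T/NK-like group with Gzma, Ncr1 and Klre1 among its leading genes, all genes of cytotoxic lymphocytes, held 8 of 60 nuclei with 2 or more genes in the library labelled KO and 4 of 40 in the library labelled Flox, 12% in all. Its summed level of the 8 genes was 1297 CPM. A second T/NK-like group with Lef1, Cd3d and Cd4 among its leading genes, known as genes of naive and helper T cells, held 0 of 20 labelled KO and 0 of 17 labelled Flox. A dendritic-like group with Clec9a, Flt3 and Cadm1 among its leading genes held 1 of 13 labelled KO and 3 of 9 labelled Flox.

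A macrophage/monocyte-like group with Retnla, Lyz1 and Fn1 among its leading genes held 0 of 24 labelled KO and 5 of 53 labelled Flox. The B-like group held 0 of 17 labelled KO and 0 of 14 labelled Flox. A group with mast cell genes (Cpa3, Mcpt4, Tpsb2) held 4 of 31 labelled KO and 5 of 53 labelled Flox, but its 84 nuclei also held adipocyte markers at 22055 CPM, against 25835.5 CPM in the adipocyte-like class, so it was left unnamed. Its summed level of the 8 genes was 103 CPM. Joining the macrophage/monocyte-like group to the class of that name gave 1 nucleus (0.255%, 0.00646 to 1.41) in the library labelled KO and 7 nuclei (1.26%, 0.509 to 2.59) in the library labelled Flox.

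A few nuclei held most of the 8 genes at once. The 3 nuclei labelled KO with 5 or more genes all lay in the group led by Gzma. They held 8, 8 and 5 of the genes and 46, 37 and 11 of their UMIs, out of 3054, 4053 and 2002 UMIs in all. Genes of the cyclin, kinetochore and spindle lists are called the mitotic genes here and were counted apart from the 8. The cyclin list also holds genes not limited to mitosis, such as Ccnd2, Ccnd3 and Cdk6. The mitotic genes added 30.1, 19.0 and 21.0 UMIs per 1000 UMIs in these 3 nuclei. In the library labelled Flox the 9 such nuclei were spread wider: 4 in the mixed immune cluster, 3 fibroblast/progenitor-like and 2 macrophage/monocyte-like. The richest of them, a fibroblast/progenitor-like nucleus with 7 of the genes and 27 UMIs of Top2a, held 59 UMIs of the 8 genes and 64 UMIs of spindle genes. It also held 65 UMIs of adipocyte markers and 34 of fibroblast markers, and its doublet score of 0.320 compares with a median of 0.145 over the kept nuclei labelled Flox with 2 or more genes. Another of the 3, with 28 UMIs of adipocyte markers and 39 of fibroblast markers, had the same score, and both were classed as adipocyte-like when doublets were kept. The 2 macrophage/monocyte-like nuclei held 8 and 7 of the genes, with 34 and 29 UMIs.

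The mitotic genes, which the rule did not use, differed in these nuclei by class. In the mixed immune cluster, nuclei with 2 or more proliferation genes held 108 UMIs of mitotic genes per 10000 UMIs in the library labelled KO, and nuclei with none of the 8 held 32.2. Nuclei labelled Flox gave 86.4 with 2 or more genes and 25.5 with none. Adipocyte-like nuclei labelled KO held 8.10 per 10000 UMIs (5.64 to 11.3) with 2 or more genes and 7.47 with none, and those labelled Flox 10.3 (7.21 to 14.4) with 2 or more genes and 8.24 with none. In adipocyte-like nuclei the intervals of this sum for 2 or more genes thus included the level with none, in each library, and in the mixed immune cluster they did not. The lists in the sum differed in adipocyte-like nuclei with 2 or more genes, over both libraries. The spindle list held 23 UMIs where the level with none gives 13.4. The kinetochore list held 18 against 16.2 and the cyclin list 29 against 30.5. In the mixed immune cluster nuclei with exactly 2 genes held mitotic genes at 41.5 per 10000 UMIs (29.3 to 56.9) in 5 nuclei labelled KO. In 7 labelled Flox they stood at 32.4 (25.2 to 41.1), and both intervals included the level with none. Most of that level came from the cyclin list. For this cluster's nuclei with 2 or more genes it gave 194 UMIs of the cyclin list, 18.7 of the kinetochore list and 20.4 of the spindle list. The sum can thus hide a rise in the kinetochore and spindle lists, which were not read apart for exactly 2 genes. DNA replication genes in nuclei of this cluster with exactly 2 genes stood at 13.1 (6.77 to 22.9) labelled KO and 18.1 (12.8 to 24.9) labelled Flox. Nuclei with none held 6.49 and 4.95 of them, below both intervals. Adipocyte-like nuclei with exactly 2 genes held mitotic genes at 6.54 (3.99 to 10.1) in 7 nuclei labelled KO and 10.3 in 4 labelled Flox. Their replication genes stood at 3.27 (1.57 to 6.01) labelled KO and 7.09 (4.55 to 10.6) labelled Flox. Adipocyte-like nuclei with none held 4.71 and 4.72 of them, inside both intervals.

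The adipocyte-like nuclei with the most proliferation genes were few. There were 4 with 3 or more of them in the library labelled KO and 0 in the library labelled Flox. Those 4 held 11.9 UMIs of mitotic genes per 10000 UMIs (6.64 to 19.6). A nucleus with 4 UMIs of Mki67, 4 of Cenpf and 3 of Cenpe had 3 UMIs of mitotic genes among 2039. A nucleus with Mki67, Cenpf, Cenpe and Kif11 had 1 UMI of mitotic genes among 1228. A nucleus with Mki67, Cenpf, Cenpe and Aspm had 0 among 1192.

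**Figure D2:**
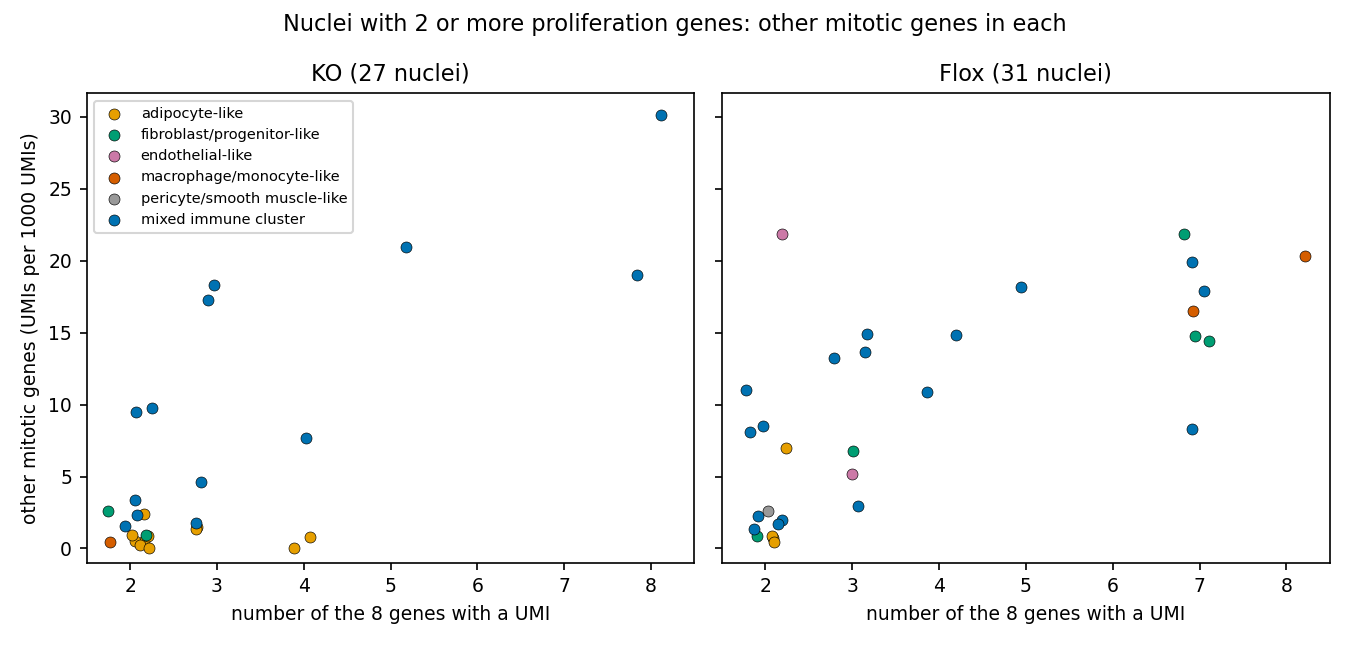
Each point is a nucleus with 2 or more proliferation genes, in the library labelled KO (left, 27 nuclei) and the library labelled Flox (right, 31 nuclei), placed by how many of the 8 genes it held (x axis, with sideways jitter) and by UMIs of the cyclin, kinetochore and spindle lists per 1000 UMIs (y axis); colours are classes. Nuclei with 5 or more genes hold 8.32 or more per 1000, and 10 of 11 adipocyte-like nuclei in the library labelled KO hold 1.47 or less.

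Other cell cycle genes were read in the same nuclei against nuclei with none of the 8 genes from the same class and library. Spindle, kinesin and cytokinesis genes were 14.1-fold over that level (650 UMIs), 9.23-fold in the library labelled KO and 17.2-fold in the library labelled Flox. Kinetochore and centromere genes were 9.97-fold over it, 5.72-fold in the library labelled KO and 12.4-fold in the library labelled Flox. DNA replication genes, which act in S phase, were 1.78-fold over it (1.42 to 2.20) in the library labelled KO and 6.42-fold (5.83 to 7.06) in the library labelled Flox. Condensin, histone and chromatin genes were 2.03-fold over it in the library labelled KO and 4.35-fold in the library labelled Flox. Cell cycle inhibitors stood at 1.01-fold in the library labelled KO and 1.07-fold in the library labelled Flox, and the cyclin and CDK list at 0.845-fold and 1.16-fold. Of that list, 5 genes were seen in 10 or more of the nuclei, and they went different ways. Ccnd3 had 75 UMIs where that level would give 231, Ccnf 21 against 0.623 and Bub1b 19 against 0.386. Ccnd2 stood at 1.01-fold and Cdk6 at 1.18-fold.

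By class, the spindle list was 28.5-fold over that level in fibroblast/progenitor-like nuclei, 20.6-fold in macrophage/monocyte-like nuclei and 17.1-fold in the mixed immune cluster, but 1.71-fold in adipocyte-like nuclei. The replication list was 8.58-fold, 9.11-fold, 4.91-fold and 1.16-fold over it in the same 4 classes. These folds join both libraries. In the library labelled KO, 2 fibroblast/progenitor-like nuclei held mitotic genes at 14.7 per 10000 UMIs (6.73 to 27.9), against 14.9 with none. The 1 macrophage/monocyte-like nucleus labelled KO held 4.58 (0.945 to 13.4), against 27.7. In the library labelled Flox 5 fibroblast/progenitor-like nuclei held 131, against 14.8, and 2 macrophage/monocyte-like nuclei 182, against 27.0. The library labelled KO drew 11 of its 27 nuclei (40.7%) from the adipocyte-like class and the library labelled Flox 4 of 31 (12.9%), and this difference in make-up stands beside each of the 2-library values above; its part in them was not tested.

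The 20 genes most like the 8, by the ratio of observed to expected UMIs over the 58 nuclei (with 0.5 UMI added to each), are named here as a description, and 17 of them were in the cell cycle lists used. Expected UMIs are those at the level in nuclei with none of the 8 genes, of the same class and library. Of 4166 genes ranked, 196 (4.70%) stood at least 2-fold over the expected level. Neil3, a DNA glycosylase that is outside those lists, led with 62 UMIs in 22 of the nuclei, against 0.135 expected. Knl1, the kinetochore scaffold that recruits checkpoint proteins, followed with 51 UMIs in 22 nuclei, against 0.374 expected. Cit, the citron kinase of the midbody, had 35 UMIs against 0.126 expected. The chromokinesin gene Kif4 had 26 UMIs against 0.0905 expected, and Tpx2, a spindle assembly factor, 31 against 0.218.

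Among the next were Kif15, Hmmr, Cenph, Ckap2l and Prc1, followed by Kntc1, Cdca8, Ncapg, Cdca2, Esco2, Diaph3, Bub1b, Foxm1 and Ndc80. Kntc1 and Cdca2 are outside the lists used here. Foxm1, the transcription factor of late cell cycle genes, had 13 UMIs in 10 of the nuclei, against 0.181 expected. Diaph3, a formin, had the most UMIs of the 20, with 16 in the library labelled KO and 62 in the library labelled Flox.

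Promoter windows were found for 15 of these 20 genes. Of them 11 (73.3%) held TTTGAA, 10 (66.7%) held CCAAT and 8 (53.3%) held both, against the 20.2%, 41.1% and 7.97% of all genes given above for windows of the same length. Of the 147 genes of the cell cycle lists with a window, 38.8% held TTTGAA, 65.3% held CCAAT and 28.6% held both.

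Summed over all kept nuclei, the 8 genes had 628 UMIs (17.3 CPM) in the library labelled KO and 789 UMIs (21.0 CPM) in the library labelled Flox. The ratio was 0.825 (0.741 to 0.917). With at most 1 UMI of a gene counted per nucleus the log2 ratio was -0.07, in place of -0.28. As a mean of CPM over nuclei it was 0.17, of opposite sign. With at least 10 UMIs over both libraries all 8 genes could be compared. By at least 1.5-fold, 1 (Aspm) was higher and 3 (Top2a, Cenpf and Ect2) were lower in the library labelled KO, where 3.06% of 15797 genes were higher and 10.5% were lower (2.43% and 9.11% among genes with at least 20 UMIs). The median log2 ratio of the 8 genes was -0.35, against -0.07 over all genes.

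Mki67 had 68 UMIs in 36 nuclei labelled KO and 86 UMIs in 38 nuclei labelled Flox (ratio 0.819, 0.587 to 1.14). Of the 74 nuclei with Mki67, 36 (48.6%) held a second gene of the 8, the highest share of any. Top2a had 63 UMIs in 38 nuclei labelled KO and 137 UMIs in 48 nuclei labelled Flox (ratio 0.476, 0.348 to 0.647). A single nucleus labelled Flox held 27 of those 137 UMIs. Cenpf had 31 UMIs in 15 nuclei labelled KO and 49 in 27 nuclei labelled Flox (ratio 0.655, 0.404 to 1.05), and 47.6% of its nuclei held a second gene.

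Cenpe had 87 UMIs in 72 nuclei labelled KO and 106 in 79 nuclei labelled Flox (ratio 0.850, 0.633 to 1.14). Kif11 had 69 UMIs in 57 nuclei labelled KO and 96 in 67 nuclei labelled Flox (ratio 0.745, 0.538 to 1.03). Both kinesin genes were found mostly in nuclei without another of the 8: 24.5% of Cenpe nuclei and 17.7% of Kif11 nuclei held a second. Aspm was the gene that was higher in the library labelled KO, with 91 UMIs in 73 nuclei labelled KO and 59 in 52 nuclei labelled Flox (ratio 1.6, 1.14 to 2.26).

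Anln had 178 UMIs in 161 nuclei labelled KO and 189 in 165 nuclei labelled Flox (ratio 0.976, 0.791 to 1.20). Of its nuclei 6.13% held a second gene, the lowest share of the 8, and 83.1% of its UMIs in the library labelled KO and 73.5% in the library labelled Flox lay in adipocyte-like nuclei. Mki67 had 20.6% of its UMIs there in the library labelled KO and 15.1% in the library labelled Flox. Ect2 had 41 UMIs in 33 nuclei labelled KO and 67 in 51 nuclei labelled Flox (ratio 0.634, 0.419 to 0.949). The genes that met most often in 1 nucleus were Mki67 and Cenpe, in 11 nuclei labelled KO and 12 labelled Flox, and Mki67 and Top2a, in 6 labelled KO and 14 labelled Flox.

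**Figure D3:**
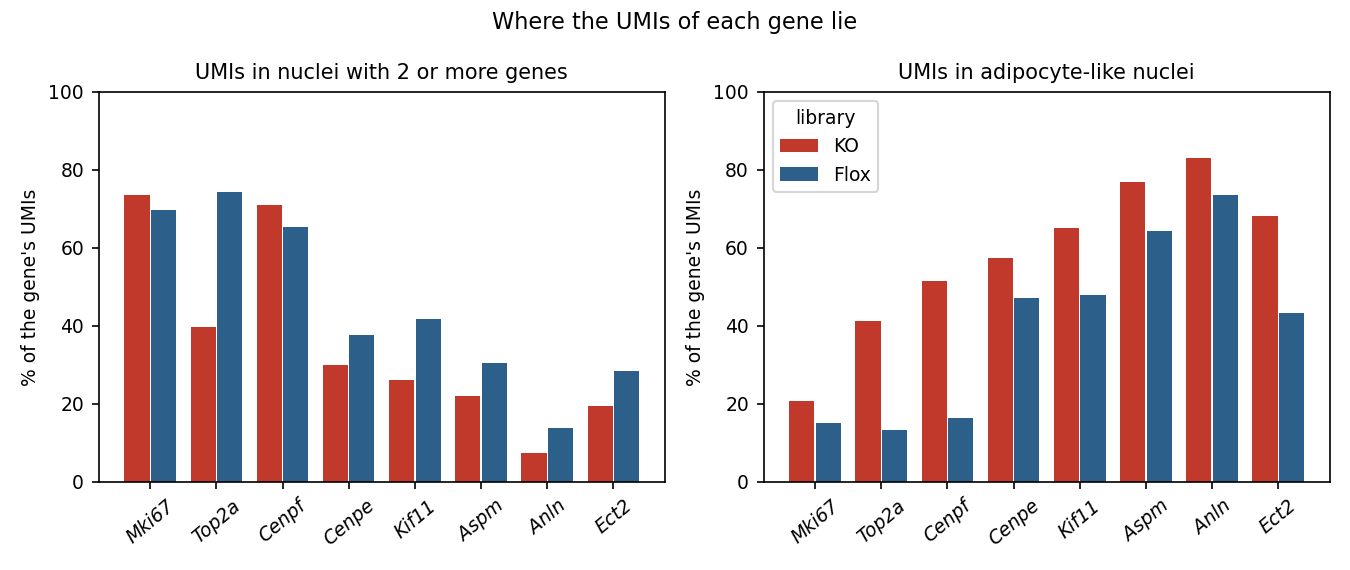
Percent of each gene's UMIs found in nuclei with 2 or more of the 8 genes (left panel) and in adipocyte-like nuclei (right panel), for the library labelled KO (red) and the library labelled Flox (blue). Mki67 has 73.5% (KO) and 69.8% (Flox) of its UMIs in nuclei with 2 or more genes, and Anln 7.30% (KO) and 13.8% (Flox).

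By class, the mixed immune cluster had the highest level of all 8 genes in the library labelled KO and of 7 in the library labelled Flox. The exception was Anln in the library labelled Flox, where Schwann-like nuclei stood at 21.5 CPM on 3 UMIs and the mixed immune cluster at 10.6 CPM on 6 UMIs. Mki67 stood at 98.9 CPM in the mixed immune cluster labelled KO and 65.6 CPM in that labelled Flox, and its next class, macrophage/monocyte-like nuclei, at 5.08 CPM labelled KO and 17.5 CPM labelled Flox. Top2a stood at 63.6 CPM in the mixed immune cluster labelled KO and 70.9 CPM in that labelled Flox. Of 56 neighbouring pairs of classes in the orders of the 8 genes, 5 in the library labelled KO and 6 in the library labelled Flox had intervals that did not overlap. All 5 labelled KO set the mixed immune cluster above its next class, for Mki67, Cenpf, Kif11, Aspm and Ect2. In the library labelled Flox the mixed immune cluster stood apart for Mki67, Top2a and Cenpf. The other 3 pairs labelled Flox were macrophage/monocyte-like above fibroblast/progenitor-like nuclei for Mki67, endothelial-like above adipocyte-like for Top2a, and fibroblast/progenitor-like above adipocyte-like for Kif11.

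In the mixed immune cluster the 8 genes summed to 155 UMIs (365 CPM) in the library labelled KO and 154 UMIs (273 CPM) in the library labelled Flox, a ratio of 1.34 (1.06 to 1.68). Without the 7 nuclei with 5 or more genes it was 1.06 (0.744 to 1.51), and with doublets kept 0.995 (0.780 to 1.27). With each library clustered alone it was 1.61 (1.21 to 2.15), and at resolution 0.3 it was 1.55 (1.17 to 2.06). Among the 8 genes 4 were at least 1.5-fold higher in the library labelled KO and 0 lower, where 15.2% of 9956 genes were higher and 14.6% lower. These were Mki67 (ratio 1.51), Cenpe (1.68), Aspm (1.59) and Anln (2.21), and the interval of each of the 4 included 1; Kif11 stood at 1.505 (40.04 CPM labelled KO, 26.6 CPM labelled Flox), just under the threshold once 0.5 UMI was added to each sum. T/NK markers stood at 30.8 per 10000 UMIs in the library labelled KO and 18.8 in the library labelled Flox in this cluster, and their part in these ratios was not tested.

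In adipocyte-like nuclei the 8 genes summed to 397 UMIs (13.6 CPM) in the library labelled KO and 341 UMIs (12.1 CPM) in the library labelled Flox, a ratio of 1.12 (0.966 to 1.297). With each library clustered alone it was 1.16 (1.01 to 1.35), and with doublets kept 0.928 (0.815 to 1.06). Aspm stood at 2.39 CPM (70 UMIs) in the library labelled KO and 1.35 CPM (38 UMIs) in the library labelled Flox, a ratio of 1.77 (1.18 to 2.70). Those UMIs came from 64 nuclei labelled KO and 37 labelled Flox, with at most 2 per nucleus in each. Cenpf stood at a ratio of 1.92 (0.776 to 5.19) on 16 UMIs labelled KO and 8 labelled Flox, and it turned round when doublets were kept. These 2 of the 8 genes passed 1.5-fold upwards and 0 passed it downwards, where 3.68% of 14600 genes were higher and 12.7% lower.

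In fibroblast/progenitor-like nuclei the 8 genes summed to 33 UMIs (11.5 CPM) in the library labelled KO and 152 UMIs (41.3 CPM) in the library labelled Flox, a ratio of 0.280 (0.186 to 0.410). Without the 3 nuclei labelled Flox with 5 or more genes the ratio was 0.962 (0.593 to 1.54). Top2a had 0 UMIs in the library labelled KO and 52 UMIs in 9 nuclei labelled Flox, of which 27, 12 and 4 lay in those 3 nuclei. Of the 7 genes with 10 or more UMIs, 6 were at least 1.5-fold lower and 0 higher, where 8.7% of 12595 genes were lower and 5.78% higher. The direction turned when doublets were kept. A nucleus labelled KO with all 8 genes and 54 of their UMIs then joined the class, and 2 of the 3 nuclei labelled Flox with 5 or more genes fell among adipocyte-like nuclei. The sum was then 109 UMIs (29.3 CPM) in the library labelled KO and 77 UMIs (15.03 CPM) in the library labelled Flox, a ratio of 1.95 (1.44 to 2.65).

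In macrophage/monocyte-like nuclei the 8 genes summed to 18 UMIs (18.3 CPM) in the library labelled KO and 88 UMIs (90.4 CPM) in the library labelled Flox, a ratio of 0.202 (0.115 to 0.339). Without the 2 nuclei with 5 or more genes, both labelled Flox, it was 0.704 (0.362 to 1.34). With doublets kept it was 0.341 (0.241 to 0.474), and with each library clustered alone 0.211 (0.137 to 0.315). All 6 genes with 10 or more UMIs were at least 1.5-fold lower, where 11.4% of 10319 genes were lower and 8.85% higher. Ect2 had 0 UMIs in the library labelled KO and 11 UMIs in 7 nuclei labelled Flox.

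In endothelial-like nuclei the 8 genes summed to 12 UMIs (5.93 CPM) in the library labelled KO and 37 UMIs (13.5 CPM) in the library labelled Flox, a ratio of 0.438 (0.208 to 0.860). Cenpe, the single gene with 10 or more UMIs, had 2 UMIs labelled KO and 10 labelled Flox; 15.7% of 11942 genes were lower by at least 1.5-fold in this class and 5.5% were higher. The ratio of the sum was 0.767 (0.461 to 1.25) with doublets kept. The 7 erythroid markers stood at 66.7 per 10000 UMIs in the library labelled KO and 13.6 in the library labelled Flox in this class, and their part in these values was not tested. In pericyte/smooth muscle-like nuclei the sums were 9 UMIs (20.8 CPM) labelled KO and 10 UMIs (16.1 CPM) labelled Flox. Cenpe, again the single gene with 10 or more UMIs, had 7 labelled KO and 3 labelled Flox, where 12.5% of 9474 genes were higher by at least 1.5-fold and 14.1% were lower.

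**Figure D4:**
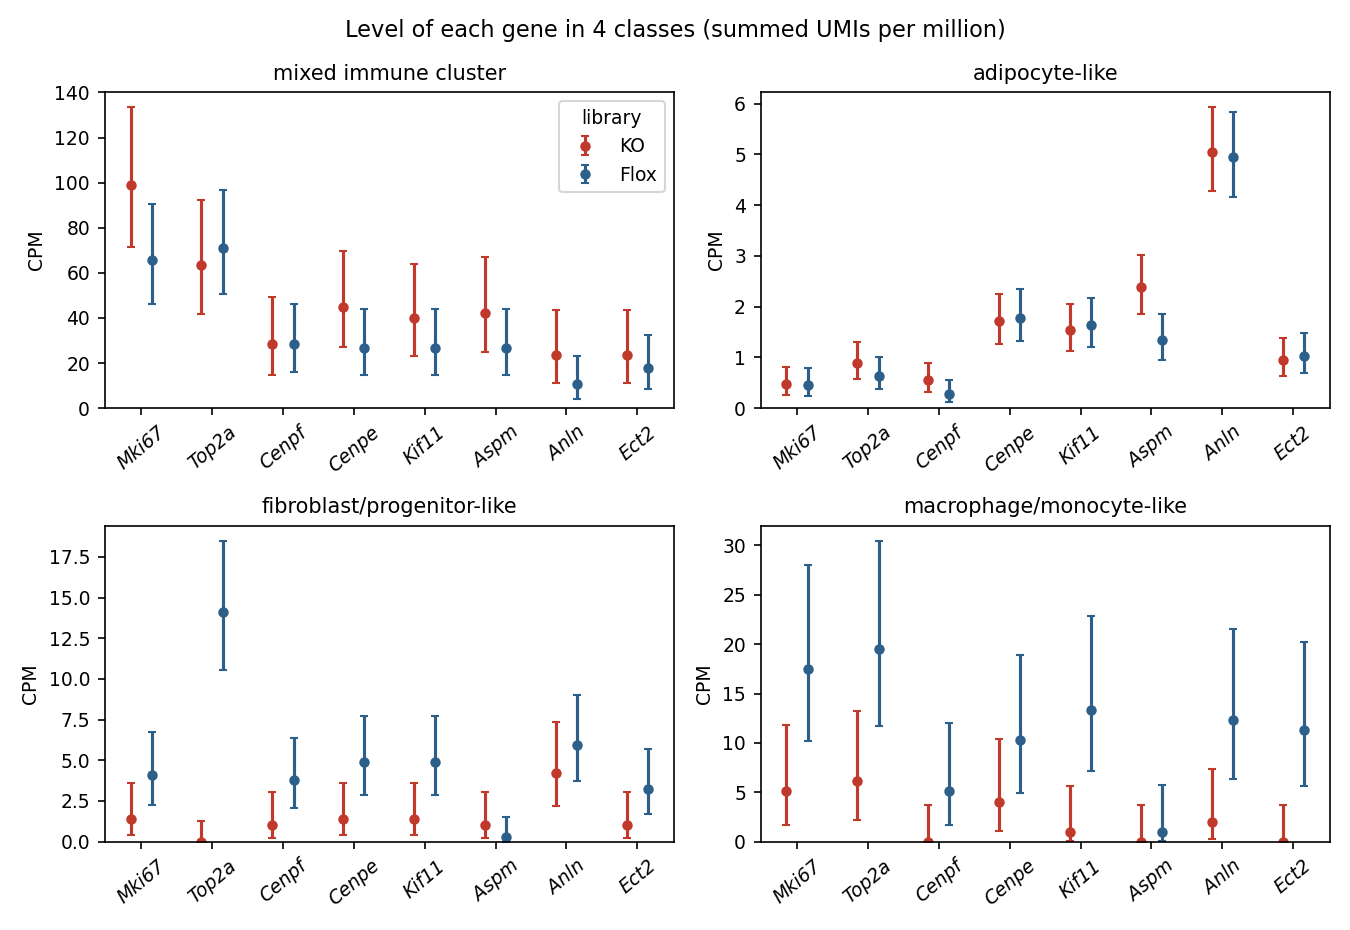
Level of each of the 8 genes (y axis, CPM, with exact 95% Poisson intervals) in 4 classes, for the library labelled KO (red) and the library labelled Flox (blue); each panel has its own scale. Mki67 stands at 98.9 CPM (KO) and 65.6 CPM (Flox) in the mixed immune cluster and at 0.478 CPM (KO) and 0.462 CPM (Flox) in adipocyte-like nuclei.

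**Figure D5:**
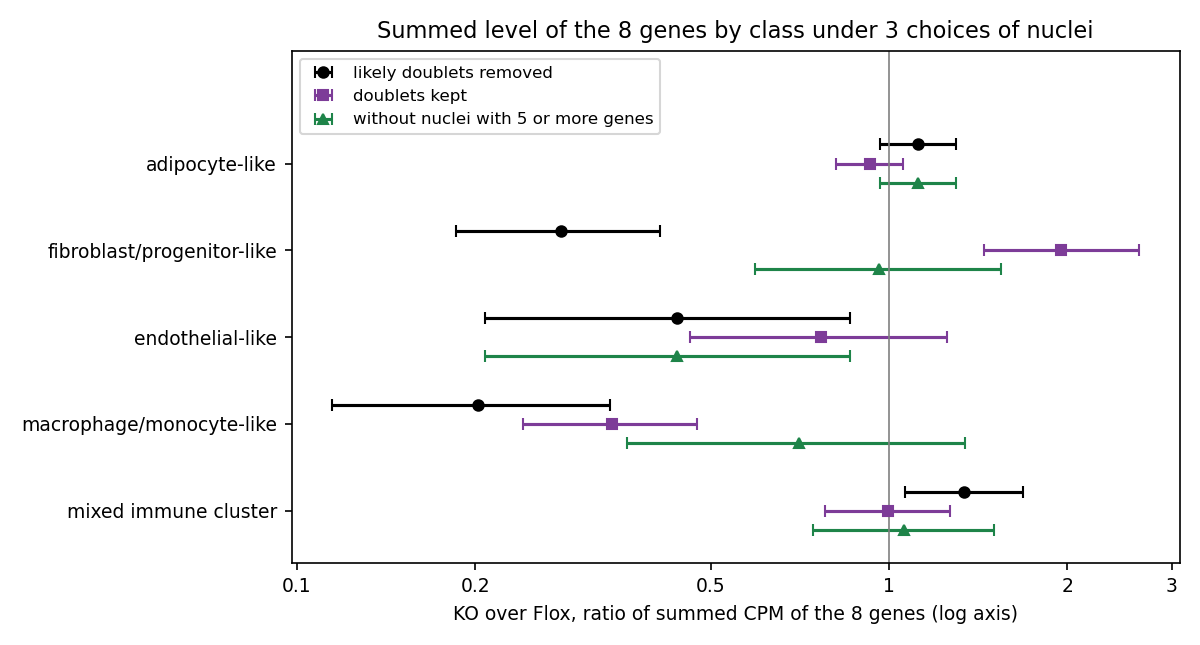
Ratio of the summed CPM of the 8 genes, library labelled KO over library labelled Flox (x axis, log scale), with exact 95% intervals, after removal of likely doublets (circles), with doublets kept (squares) and without nuclei with 5 or more of the genes (triangles). In fibroblast/progenitor-like nuclei the ratio is 0.280, 1.95 and 0.962 under the 3 choices, and in adipocyte-like nuclei it is 1.12, 0.928 and 1.12.

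The other cell cycle genes of 7 lists were compared by class in the same way, among genes with at least 20 UMIs. Numbers of measured genes are given in the order of the replication, cyclin, kinetochore, spindle, chromatin, inhibitor and transcription factor lists. In adipocyte-like nuclei 8 list genes passed 1.5-fold upwards and 21 downwards, where 2.94% of 13640 genes were higher and 10.9% lower. The lists held 40, 21, 28, 22, 17, 17 and 14 measured genes there. Nuf2, an outer kinetochore subunit, had 21 UMIs labelled KO and 3 labelled Flox (ratio 6.73, 2.01 to 35.2). Psrc1, a spindle protein, had 20 UMIs labelled KO and 6 labelled Flox, and Arhgap11a 46 labelled KO and 18 labelled Flox (ratio 2.46, 1.40 to 4.50). Cyclin E2 (Ccne2) had 179 UMIs (6.11 CPM) labelled KO and 297 UMIs (10.6 CPM) labelled Flox, a ratio of 0.579 (0.479 to 0.700). The repressor E2f7 had 38 UMIs labelled KO and 74 labelled Flox (ratio 0.494, 0.325 to 0.740), and the CDK4/6 inhibitor Cdkn2b had 14 labelled KO and 35 labelled Flox (ratio 0.385, 0.191 to 0.733).

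Fibroblast/progenitor-like nuclei had 2 list genes 1.5-fold higher or more and 21 lower, where 4.63% of 11594 genes were higher and 6.76% lower. The lists held 32, 10, 13, 8, 15, 14 and 13 measured genes there. The spindle list had 5 of 8 measured genes lower and 0 higher, with a median log2 ratio of -1.13. Prc1, the antiparallel microtubule crosslinker, had 1 UMI labelled KO and 27 labelled Flox, of which 11 were in 1 nucleus. Kif15 had 2 UMIs labelled KO and 25 labelled Flox, of which 8 were in 1 nucleus. Replication genes had 9 of 32 lower and 1 higher, with Mcm10 at 4 UMIs labelled KO and 19 labelled Flox. With doublets kept the count over the lists was 8 higher and 7 lower, and the share over all genes was not computed for that setting.

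In macrophage/monocyte-like nuclei 1 list gene was at least 1.5-fold higher and 11 were lower, where 7.15% of 8904 genes were higher and 8.58% lower. The lists held 14, 6, 8, 7, 13, 12 and 10 measured genes there. Diaph3 had 8 UMIs labelled KO and 24 labelled Flox, and Cenpp, a centromere protein, 4 labelled KO and 27 labelled Flox, of which 11 were in 1 nucleus. In the mixed immune cluster 8 list genes were higher and 8 lower, where 12.5% of 7996 genes were higher and 12.2% lower. The lists held 11, 4, 8, 11, 14, 12 and 7 measured genes there, so both counts lay near the shares over all genes. The antiproliferative gene Btg1 had 82 UMIs (193 CPM) labelled KO and 42 UMIs (74.5 CPM) labelled Flox, a ratio of 2.59 (1.77 to 3.86), and the pocket protein gene Rbl2 stood at a ratio of 1.95 (1.38 to 2.77). Atad2, a gene of the replication list, was lower there, with 15 UMIs labelled KO and 44 labelled Flox (ratio 0.453, 0.234 to 0.829).

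In endothelial-like nuclei 5 list genes were higher and 13 lower, where 4.13% of 10820 genes were higher and 13.4% lower. The lists held 26, 9, 8, 7, 16, 16 and 12 measured genes there, so both counts lay near the shares over all genes. Tfdp1, the partner of E2F factors, had 16 UMIs labelled KO and 61 labelled Flox (ratio 0.355, 0.191 to 0.623), while the clamp loader gene Rfc2 had 67 labelled KO and 47 labelled Flox (ratio 1.93, 1.31 to 2.86). In pericyte/smooth muscle-like nuclei 2 list genes were higher and 7 lower, where 9.7% of 7580 genes were higher and 12% lower. The lists held 10, 5, 4, 1, 11, 10 and 7 measured genes there, so the count of lower genes lay near the share over all genes. Cyclin D2 (Ccnd2) had 6 UMIs labelled KO and 36 labelled Flox there (ratio 0.239, 0.0824 to 0.573).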

How the data were processed

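The deposited matrices hold raw UMI counts per gene and barcode for 2 libraries of nuclei (Chromium 3′ v3 chemistry, NovaSeq). Per the file headers, the authors used Cell Ranger 5.0.0, and the submitters' processing notes name mm10. Whether intronic reads were counted, with which gene models, and how nuclei were told from empty droplets was not stated. The files hold no column of another sample (0 such columns).

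Barcodes with under 200 genes or over 10% mitochondrial UMIs were removed (129 labelled KO, 99 labelled Flox). Likely doublets were then removed by simulated-doublet score, at 0.8% per 1000 barcodes (1345 labelled KO, 2073 labelled Flox), since the automatic threshold marked 0 and 3253. Both libraries were clustered together with Scanpy 1.11.5 and leidenalg 0.10.2 (2000 variable genes, 30 components, 15 neighbours, resolution 0.5), leaving out the proliferation and cell cycle genes. Clusters were named from marker lists. Nuclei of a class were summed per library, as UMIs per 1000000 UMIs (CPM). Fold calls used at least 1.5-fold with 0.5 UMI added, among genes with 10 UMIs (the 8 genes) or 20 UMIs (the lists). Intervals are exact, at 95% (SciPy 1.17.1), save those of differences in percentage points, which join 2 exact intervals. A count of 0 is given an upper limit of 3 counts. TMM factors came from edgeR 4.0.16, as an alternative scaling only.

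The 8 genes, the 7 cell cycle lists and the marker lists were chosen with earlier results of these data known. Besides the 8 genes, the text names from up to 4 genes each way per list with the largest ratio in a class, and the 20 genes most like the 8, left unranked if seen in under 10 of the nuclei; 1 of those 20 is not reported here. The fold call and the ranking were tested on simulated data: of 200 genes changed 2-fold in sums over all kept nuclei, 189 were recovered among 15048 genes. Of unchanged genes 2.66% were called, and the ranking recovered 198 of 200 genes changed 10-fold. Simulated counts were independent draws. Calls in single classes, and calls on UMIs gathered in a few nuclei, were not tested in this way. Alternatives changed doublet handling, filters, depth, clustering, class naming, scaling and the minimum of UMIs.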

Additional observations from a re-analysis of the deposited data

Results flagged for a closer look

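Barcodes removed as likely doublets, which most comparisons above do not use, included barcodes with 2 or more proliferation genes, at a share above that of all barcodes beyond counting error in the library labelled KO. In the library labelled KO, 12 of 39 such barcodes were removed (30.8%, 17.0 to 47.6), against 10.4% of all barcodes labelled KO. In the library labelled Flox, 9 of 40 were removed (22.5%, 10.8 to 38.5), against 12.9% of all barcodes labelled Flox, a share inside that interval. With doublets kept, the share of nuclei with 2 or more genes was 0.302% in the library labelled KO and 0.249% in the library labelled Flox.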

How the results depend on the processing

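No paired analysis was possible because each genotype had 1 library, and no replicate could be left out. Of 288 recomputed values 229 lay within the counting interval of the main value (counts, within 1.5 times), some of them with the opposite sign; the cause of the other changes was not tested. The ratio of the overall share of nuclei with 2 or more genes (main 1.05) ran from 0.786 to 1.21 over 11 alternatives and lay below 1 in 5 of them; its interval lay above 1 for nuclei with 1 or more genes (1.18, 1.03 to 1.35) and included 1 in the others. The thinned ratio (main 1.02) ran from 0.618 to 1.06 over 5, all with intervals that included 1. The log2 ratio of summed UMIs (main -0.28) was -0.077 with doublets kept, -0.069 with at most 1 UMI per nucleus, 0.17 as a mean over nuclei, and -0.53 without adipocyte-like nuclei. The last was chosen after seeing the data, as were leaving out shared barcodes or the richest nucleus and the second clustering of the mixed immune cluster. In percentage points, KO minus Flox, the adipocyte-like share moved to 0.523 with 1 or more genes and 0.219 with 2 or more UMIs, the macrophage/monocyte-like share to -1.35 at resolution 0.3 and -1.31 with libraries clustered alone, and the pericyte/smooth muscle-like share to 1.51 with 1 or more genes.

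Keeping doublets turned 9 single log2 ratios that had been at least 1.5-fold: Cenpf to -0.49 in adipocyte-like nuclei; Mki67 to 1.74, Top2a to 1.10, Cenpf to 1.13, Cenpe and Kif11 to 0.46 and Ect2 to 0.12 in fibroblast/progenitor-like nuclei; Cenpe to -0.074 and Anln to -0.20 in the mixed immune cluster. Smaller ones turned as well, among them Top2a to -1.12 and Mki67 to -0.33 in adipocyte-like nuclei and Anln to 1.18 in fibroblast/progenitor-like nuclei. It also changed how many of the 8 genes were 1.5-fold higher and lower, to 1 and 1 in adipocyte-like, 5 and 0 in fibroblast/progenitor-like, 1 and 0 in endothelial-like and 1 and 1 in mixed immune nuclei, and to 2 higher in pericyte/smooth muscle-like nuclei. The list genes became 8 and 7 in fibroblast/progenitor-like, 13 and 8 in endothelial-like and 6 and 28 in macrophage/monocyte-like nuclei, and 8 higher in pericyte/smooth muscle-like nuclei. Shares over all genes were not computed with doublets kept, so none of these counts is read as a result about the genes.

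With no minimum of UMIs, of the 8 genes 1 was higher in fibroblast/progenitor-like, 1 higher and 5 lower in endothelial-like, and 2 higher and 3 lower in pericyte/smooth muscle-like nuclei. List genes were then 13 higher in adipocyte-like, 20 higher and 57 lower in fibroblast/progenitor-like, 32 and 42 in endothelial-like, 9 and 71 in macrophage/monocyte-like, 35 and 51 in pericyte/smooth muscle-like and 45 and 40 in mixed immune nuclei. TMM scaling gave 4 higher list genes in fibroblast/progenitor-like, 8 in endothelial-like and 3 in macrophage/monocyte-like nuclei. Clustering each library alone gave 2 higher and 21 lower in macrophage/monocyte-like nuclei and 5 lower in the mixed immune cluster. For these settings too, shares over all genes were not computed, and the counts are not read as results about the genes. With no minimum, a gene with 1 UMI in all could pass. The number of nuclei limits the shares of small classes: 0 of 31 unnamed nuclei labelled KO allows up to 9.68%.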
